A study of Mus musculus with 13 samples.

Results

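The events described here are the alternative splicing events that lie on mouse chromosome 4 around Khdrbs1, the gene inactivated in the knockout animals of this study. An event was taken when its start fell within 10 Mb of the gene on either side (chr4:119398098-139419022, build mm9), when it did not belong to Khdrbs1 itself, when its listed length was above 0, and when at least 10 reads bore on it in at least 4 libraries. These limits kept 3396 of the 283765 listed events, against 198391 events elsewhere in the genome that passed the same length and read limits. The members lie in 246 genes and comprise 800 exons, 2057 introns, 311 alternative acceptor sites and 228 alternative donor sites. Of the other listed events in that stretch, 18 belonged to Khdrbs1, 556 had a length of 0 and 644 had too few reads.

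Khdrbs1 encodes Sam68, a nuclear RNA-binding protein of the STAR family that recognises U- and A-rich motifs and changes the choice of exons and splice sites, with known targets in neurons. An allele made by gene targeting in embryonic stem cells of one mouse strain and then crossed into another keeps a stretch of donor chromosome on both sides of the targeted gene, and neighbouring genes of that stretch can differ in sequence, and so in splicing, whatever the targeted protein does. The labels name C57BL/6 as the background of every animal and do not describe how the allele was made. The genotype of the chromosome around Khdrbs1 was not measured here, so an effect of Sam68 loss and an effect of linked sequence cannot be told apart from these libraries.

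Total RNA from cerebella was sequenced in 13 libraries made with a modified stranded mRNA kit. The groups are Sam68 knockout (KO) at postnatal day 1 (P1, 3 libraries), wild type (WT) at P1 (2 libraries), KO at P10 (3 libraries), WT at P10 (2 libraries) and WT at P30 (3 libraries), all C57BL/6. The series' design text gives the library numbers per genotype differently from the sample labels, and the sample labels are followed. Nothing states that the libraries of a group come from different animals, so the spread between them may be technical.

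The mRNA of the targeted gene followed the labels. Khdrbs1 stood at 5.42, 4.22 and 8.50 cRPKM (reads scaled to mappable length and library size) in KO at P1, against 56.5 and 74.4 cRPKM in WT. At P10 it stood at 2.06, 1.28 and 3.59 cRPKM in KO, against 61.2 and 56.2 cRPKM in WT. Reads bearing on the members summed to 701320 to 1173877 per library. All 6 cerebellar marker genes (Zic1, Neurod1, Gabra6, Pcp2, Calb1, Atoh1) were above 0 in at least 1 library of every group. Gabra6 reached at most 0.36 cRPKM at P1, and Atoh1 at most 0.22 cRPKM in WT at P30. Their summed level at P1 was 452 to 621 cRPKM in KO and 225 to 446 cRPKM in WT, and summed red blood cell markers at P1 were 20.2 to 413 cRPKM in KO and 470 to 479 cRPKM in WT. Both sums overlapped at P10, at 1265 to 1543 cRPKM in KO and 1310 to 1350 cRPKM in WT for the cerebellar genes, and at 130 to 303 cRPKM in KO and 149 to 238 cRPKM in WT for the red blood cell genes. Choroid plexus genes summed to 88.4 to 156 cRPKM in KO and 49.2 to 78.4 cRPKM in WT at P10, without overlap. Most of that sum was Enpp2, at 75.1 to 136 cRPKM in KO and 48.1 to 70.0 cRPKM in WT. Aqp1 and Folr1 also did not overlap at P10, whereas Kl and Clic6 did. The other sums (midbrain and hindbrain, endothelial and microglial genes, and choroid plexus genes at P1) overlapped between KO and WT at each age. Single genes were less even. Of the red blood cell genes, Hbb-b1 overlapped at P1, at 18.6, 121 and 407 cRPKM in KO and 329 and 213 cRPKM in WT. Hba-a2 stood at 0, 84.6 and 0 cRPKM in KO at P1, against 117 and 216 cRPKM in WT. WT library 8 at P1, which had the lowest cerebellar sum, held Slc6a4 at 12.45 cRPKM and Tph2 at 5.79 cRPKM. The other P1 libraries held Slc6a4 at 0 to 1.04 cRPKM and Tph2 at 0 cRPKM. Otx2 went the other way, at 6.68 cRPKM in WT library 8 and 11.5 to 20.6 cRPKM in the other P1 libraries. Hoxb3 at P1 stood at 4.68, 0.37 and 0 cRPKM in KO, against 5.78 and 4.72 cRPKM in WT. Hoxa3 is listed under 2 entries, and the sum holds the entry that is 0 in every library. The other Hoxa3 entry stood at 4.89, 0.58 and 0 cRPKM in KO at P1, against 3.99 and 1.85 cRPKM in WT. The part of these shifts in the splicing results was not tested, and in bulk tissue fewer cells of a type and less RNA per cell cannot be told apart.

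The sequences shown here belong to the members on which the results turn. They are read from GENCODE transcripts of build GRCm38, matched to an event by the lengths of the exon and its flanking introns. Of the 800 member exons, 538 matched an annotated exon with both introns, 109 matched with 1 intron, and 153 had no match. The first pair shows how one Rcan3 exon on the minus strand begins in its longer form (chr4:135425214-135425445) and its shorter form (chr4:135425214-135425442). The 2 acceptor sites lie 3 bases apart, and the extra bases are in capitals. They fall ahead of the coding sequence, which begins after 37 bases of the longer exon and 34 bases of the shorter one, and 24 shared bases are shown.
Rcan3 longer exon start: AAGtatctggcaggcatcctagaactt
Rcan3 shorter exon start: tatctggcaggcatcctagaactt
The next 3 are the coding exons of Zdhhc18 (103 bases, minus strand, chr4:133612923-133613025), Ptp4a2 (131 bases, plus strand, chr4:129845062-129845192) and Hdac1 (93 bases, minus strand, chr4:129521418-129521510). Capitals mark TAAA and TTAA, short motifs of the kind Sam68 binds as RNA, searched on the transcript's strand alone since the protein binds RNA.
Zdhhc18 exon: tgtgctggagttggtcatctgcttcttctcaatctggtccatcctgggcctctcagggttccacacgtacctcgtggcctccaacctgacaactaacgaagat
Ptp4a2 exon: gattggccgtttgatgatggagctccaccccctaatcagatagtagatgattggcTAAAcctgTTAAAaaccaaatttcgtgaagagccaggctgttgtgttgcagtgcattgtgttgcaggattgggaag
Hdac1 exon: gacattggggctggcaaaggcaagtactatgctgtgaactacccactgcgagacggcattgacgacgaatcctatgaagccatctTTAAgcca
The Ptp4a2 exon holds TAAA at 2 positions and TTAA at 1, the last overlapping the second TAAA. The Hdac1 exon holds TTAA once. No match to either motif was found in the letters of the Zdhhc18 exon. Among annotated internal exons of the same length, TAAA or TTAA occurred in 37.2% of 1058 exons of 131 bases, in 33.1% of 1340 exons of 93 bases and in 34.4% of 1086 exons of 103 bases. The last pair are neighbouring coding exons of Ubxn11 on the plus strand, of 95 bases (chr4:134112515-134112609) and 77 bases (chr4:134113357-134113433), each matched with 1 intron and neither holding the motifs.
Ubxn11 95-base exon: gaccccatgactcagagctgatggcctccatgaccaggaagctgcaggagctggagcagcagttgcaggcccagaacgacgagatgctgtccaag
Ubxn11 77-base exon: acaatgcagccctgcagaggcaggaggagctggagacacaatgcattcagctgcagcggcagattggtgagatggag
The lengths of 103, 131, 95 and 77 bases are not multiples of 3, so leaving out any of these exons alone shifts the reading frame, whereas the Hdac1 exon of 93 bases keeps it.

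The largest averaged difference among the members called was at the tandem acceptor of Rcan3, a regulator of the phosphatase calcineurin. Inclusion is given as PSI, the percentage of spliced reads that use an exon, an acceptor or a donor, or that keep an intron. Use of the longer Rcan3 acceptor (chr4:134981129-134981360, mm9, 5.56 Mb from Khdrbs1) was 17.2%, 16.7% and 15.5% in KO at P1, against 86.0% and 85.0% in WT. At P10 it was 15.5%, 44.4% and 18.5% in KO, against 80.1% and 89.8% in WT. The KO libraries lay far below the WT libraries at both ages, with KO library 11 at P10 the highest of the KO group, and WT at P30 (84.4%, 85.4% and 83.2%) matched the younger WT libraries. So in WT the exon mostly began with the 3 capital bases printed above, and in KO it mostly began after them.

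The Rcan3 difference, KO minus WT, was -69.0 points at P1 and -58.8 points at P10, on 133 to 342 reads per library. Averaged over both ages it was -4.53 on the log2 odds scale (SE 0.37), with a limma adjusted p of 0.000188. The adjusted p was 0.00771 at P1 and 0.0109 at P10. Leaving out WT library 8 raised the P1 value to 0.061, and leaving out WT library 5 or 6 raised the P10 value to 0.0894 or 0.118. The P10 call was also lost under 4 other settings, with an adjusted p of at most 0.142, while the averaged call held under every setting and left-out library. The other 7 Rcan3 events with values at both ages differed by at most 1.44 points at P1 and 1.19 points at P10.

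Zdhhc18, a palmitoyltransferase of the DHHC family, lost part of its 103-base exon in KO. The exon (chr4:133168838-133168940, mm9, 3.75 Mb away) was included at 78.9%, 81.9% and 87.1% in KO at P1, against 100% in both WT libraries. At P10 inclusion was 89.1%, 80.7% and 85.1% in KO, against 99.5% and 100% in WT. All 6 KO libraries lay below all WT libraries of their age, and WT at P30 stood at 100%, 99.5% and 99.5%, so that nearly all exon skipping was seen in KO. The difference was -17.4 points at P1 and -14.8 points at P10, and the average was -6.41 on the log2 odds scale (SE 0.51; limma adjusted p = 0.000188).

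The skipped Zdhhc18 exon rests on 198 to 411 reads per library at P1 and P10. Its adjusted p was 0.00771 at P1 and 0.00976 at P10, and the P10 call was lost without KO library 11, WT library 5 or WT library 6 (0.06, 0.0631 and 0.0873). Other settings ended the call 4 times at P1 and 5 times at P10, while the averaged call was lost only when 20 points were required. Of the other 11 Zdhhc18 events, 9 differed by under 3 points at both ages. A 78-base exon differed by 14.6 points at P1 and 2.502 points at P10, without overlap of KO and WT at P1 alone (limma adjusted p = 0.972 in the average). The intron of 613 bases just upstream of the skipped exon was retained 9.11 points more in KO at P1 and 3.56 points more at P10 (limma adjusted p = 0.0823 in the average), and its KO and WT libraries did not overlap at either age.

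2510006D16Rik, now named Tmem234, lies 0.119 Mb from Khdrbs1 and encodes a small membrane protein. A donor that lengthens one of its exons by 92 bases (chr4:129278651-129278869, mm9) was used at 80%, 83.0% and 65.7% in KO at P1, against 14.3% and 15.6% in WT. At P10 its use was 82.6%, 81.4% and 72.7% in KO, against 39.1% and 52.2% in WT. KO stood above WT at both ages, and WT at P30 (28%, 6.25% and 15.4%) was near WT at P1. The difference was 61.3 points at P1 and 33.3 points at P10 (limma adjusted p = 0.0665 and 0.972), with an average of 3.11 on the log2 odds scale (SE 0.47; limma adjusted p = 0.0211) on 23 to 66 reads per library. The call was lost in 8 of the 10 fits that left out a library, with an adjusted p of at most 0.156.

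A second event of 2510006D16Rik (Tmem234), an exon of 92 bases at chr4:129279114-129279205 (mm9), is named here after its values were seen. Its inclusion was 0.83%, 1.55% and 0.72% in KO at P1, against 6.37% and 7.51% in WT. At P10 it was 1.36%, 1.15% and 1.04% in KO, against 4.79% and 3.91% in WT, and in WT at P30 it was 13.7%, 14.5% and 13.5%. Each KO library lay below each WT library, on 360 to 850 reads. Its averaged limma adjusted p was 0.000506, but at -5.91 points at P1 and -3.17 points at P10 it missed the minimum of 10 points set for a call.

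With these events, the count of members called was small. A call required a limma adjusted p below 0.05 over all events tested, which had a mean PSI of 5 to 95, and a PSI difference of at least 10 points, with alternative sites of 1 group counted once. At P1, 2 of 619 members tested were called, both lower in KO (Zdhhc18 and Rcan3), beside 0.0242% of all 37260 events. At P10, 3 of 651 were called, the same 2 events and 1 exon of Rpl11 that was higher in KO, beside 0.0309% of all 38894 events. In the average of both ages, 3 of 605 were called (Zdhhc18, Rcan3 and the Tmem234 donor), beside 0.095% of all 35785 events. The difference at P10 minus that at P1 gave 0 calls among the 605 members and 0% of all events by limma, with 20 members (3.31%) at an unadjusted p below 0.05, against 2.59% in the rest of the genome.

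An unadjusted p below 0.05 in the average was reached by 71 of 605 members (11.7%), against 6.01% of 35180 events in the rest of the genome. Within 5 Mb of Khdrbs1 the share was 13.9% of 366 events, and from 5 to 10 Mb it was 8.37% of 239 events. The median absolute difference was 2.57 points in the window and 2.20 points elsewhere, so most members differed little between KO and WT.

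**Figure D1:**
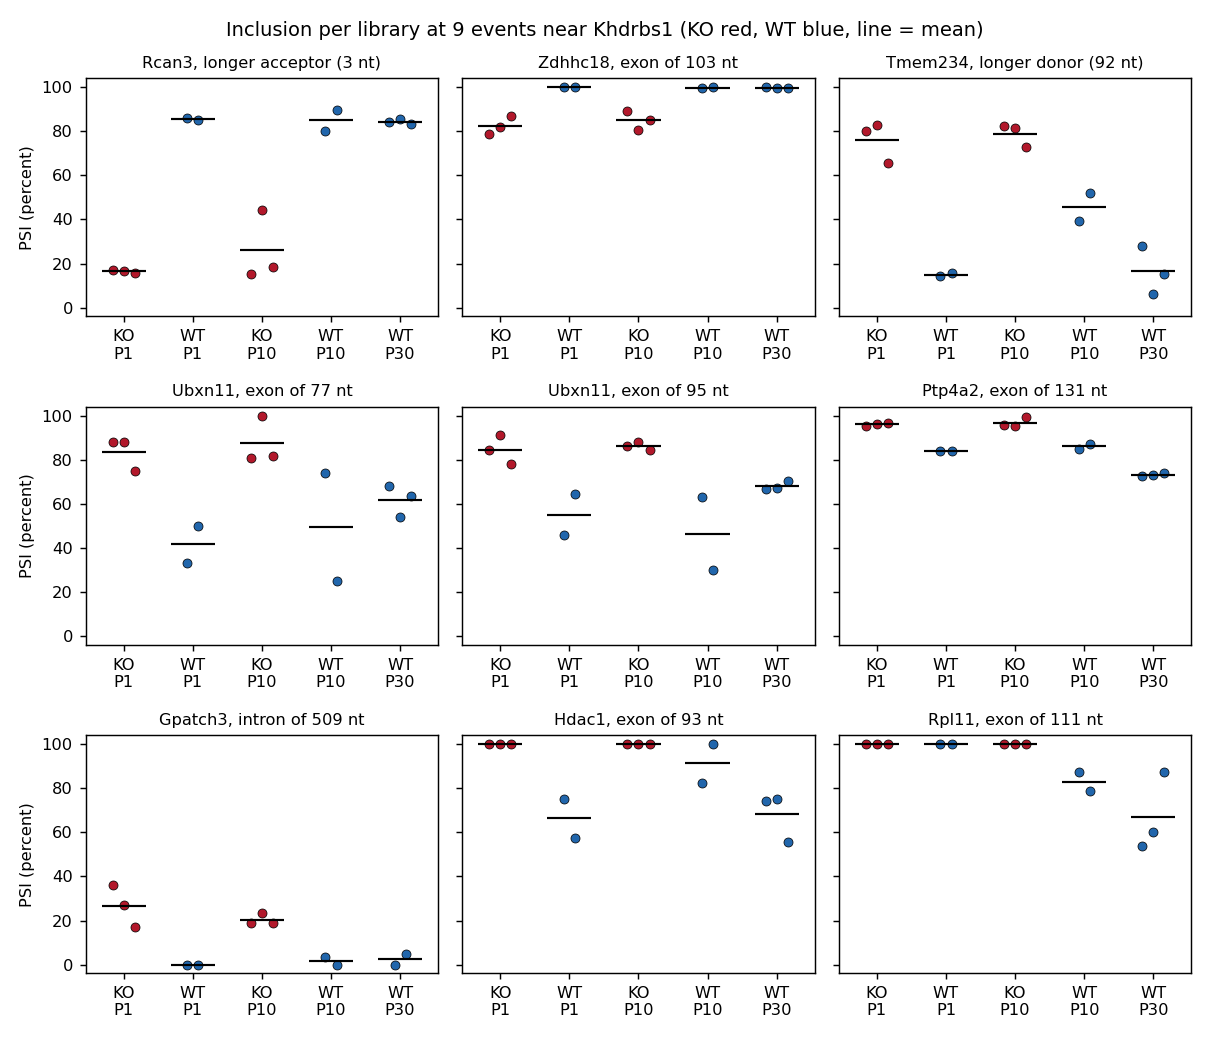
PSI in percent (vertical axis) of 9 events around Khdrbs1 in each library, with KO left of WT at each age and WT at P30 last; points are libraries (KO red, WT blue) and lines are group means. Rcan3 and Zdhhc18 lie lower in KO at both ages, the Tmem234 donor, both Ubxn11 exons, the Ptp4a2 exon and the Gpatch3 intron lie higher, and the Hdac1 and Rpl11 exons stand at 100% in every KO library.

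A second description needs no model. It counts events whose KO and WT libraries lay apart without overlap at P1 and again at P10. The direction had to be the same, with at least 10 points between the means at each age. The P1 and P10 comparisons share no library. In the window 15 of 2978 events (0.504%) met this, 8 higher and 7 lower in KO, beside 0.148% of all 173842 events compared (0.0926% higher and 0.0552% lower). The rest of the genome gave 242 of 170864 events (0.142%).

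By distance from Khdrbs1, the separated events were 4 of 536 (0.746%) within 2 Mb, 9 of 1091 (0.825%) from 2 to 5 Mb and 2 of 1351 (0.148%) from 5 to 10 Mb. The rest of chromosome 4 gave 7 of 8372 (0.0836%) and the other chromosomes 235 of 162492 (0.145%). Among those, the share ran from 0.0647% on chromosome 5 to 0.32% on chromosome 6, apart from chromosome Y with 1 of 97 (1.03%). No other stretch of like size was compared. The share was thus higher within 5 Mb than beyond, and from 5 to 10 Mb it was near the share of all events, although the Rcan3 acceptor lay there. These shares were not tested, and events of 1 gene are not independent of each other. The 15 events fall in 12 genes, 5 of them ahead of Khdrbs1 on the chromosome and 10 after it, the nearest 0.103 Mb away.

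**Figure D2:**
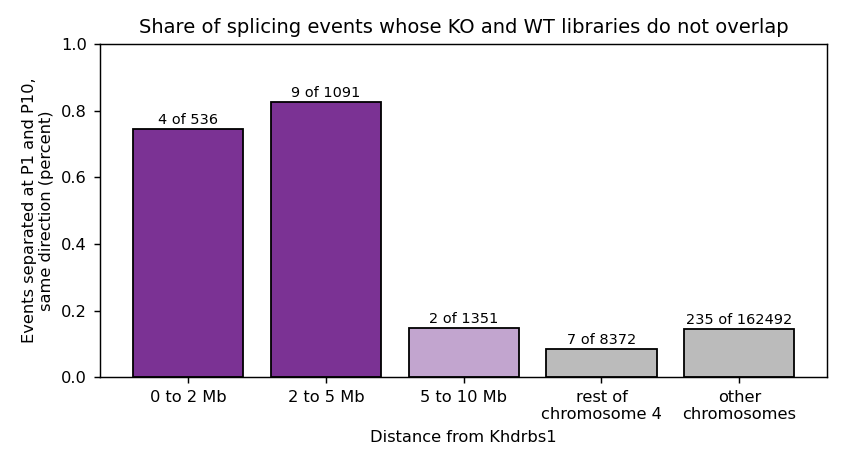
Percentage of events (vertical axis) whose KO and WT libraries do not overlap at P1 and at P10 in the same direction with at least 10 points at each age, by distance from Khdrbs1 (horizontal axis); numbers above the bars give events separated of events compared. The bars at 0.746% and 0.825% stand within 5 Mb of Khdrbs1, and the others lie between 0.0836% and 0.148%.

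**Figure D3:**
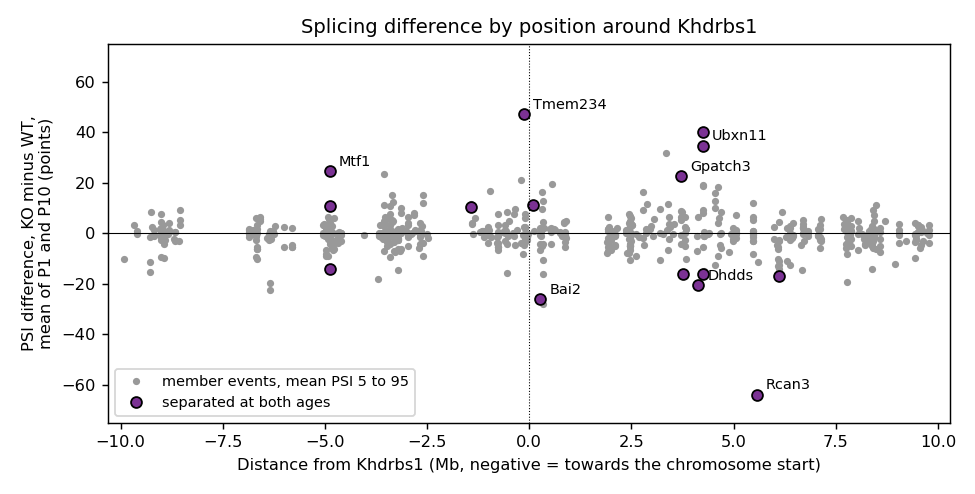
PSI difference, KO minus WT, as the mean of P1 and P10 in points (vertical axis) against signed distance from Khdrbs1 in Mb (horizontal axis) for members with a mean PSI of 5 to 95 (grey) and for the 15 separated members (purple). Most grey points lie near 0, and the separated members lie on both sides of Khdrbs1, in both directions.

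Among the exons, Ubxn11, which encodes a UBX-domain protein, had 2 neighbouring exons included more often in KO. The 77-base exon (chr4:133669272-133669348, mm9, 4.25 Mb away) was included at 88%, 87.9% and 75% in KO at P1, against 33.3% and 50% in WT. At P10 it stood at 81.0%, 100% and 81.8% in KO, against 74.2% and 25% in WT. The KO libraries were the higher ones throughout, although the WT libraries at P10 were far apart. Differences were 42.0 points at P1 and 38.0 points at P10 (limma adjusted p = 0.276 in the average), on 15 to 47 reads per library.

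The 95-base exon of Ubxn11 (chr4:133668430-133668524, mm9) stood at 84.6%, 91.1% and 78.3% in KO at P1, against 46.0% and 64.3% in WT. At P10 it stood at 86.2%, 88.2% and 84.6% in KO, against 63.0% and 30% in WT. The groups did not overlap, and WT at P30 (66.7%, 67.2% and 70.4%) was also below every KO library. Its limma adjusted p in the average was 0.0936, and it fell to 0.0471 when PSI in percent was fitted. The intron of 2856 bases that ends at this exon was retained less in KO, by 18.2 points at P1 and 14.01 points at P10, with KO library 11 left out for its 6 reads (limma adjusted p = 0.869). These 3 events share reads across 1 stretch of the gene and are not independent. Of 13 other Ubxn11 events with values at both ages, 5 differed by under 3 points at both. The largest differences among the 13 were 18.2 points at P1 and 28.7 points at P10. Ubxn11 expression was low, at 0, 0 and 6.85 cRPKM in KO and 3.26 and 2.27 cRPKM in WT at P1. At P10 it was 1.66, 0 and 4.34 cRPKM in KO and 1.85 and 0.27 cRPKM in WT.

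The Ptp4a2 exon printed above lies closest to Khdrbs1 of the separated events, 0.103 Mb away (chr4:129522306-129522436, mm9). Ptp4a2 encodes a protein tyrosine phosphatase of the PRL family. Inclusion was 95.5%, 96.4% and 96.9% in KO at P1, against 84.2% and 84.0% in WT. At P10 it was 95.6%, 95.4% and 99.5% in KO, against 84.9% and 87.3% in WT. The libraries of each group were close together and the groups did not overlap, and WT at P30 lay lower still, at 72.6%, 73.3% and 74.0%. The difference of 12.1 points at P1 and 10.7 points at P10 had a limma adjusted p of 0.0797 in the average, on 326 to 487 reads per library, and KO library 12, the highest at P10, decided the call, with an adjusted p of 0.00127 without it. It was also called with PSI in percent (0.00492) and with 1 read added to each side (0.0488).

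The last exon is one of 122 bases in Csmd2, a large membrane protein with CUB and sushi domains (chr4:127983607-127983728, mm9, 1.41 Mb away). It was included at 57.2%, 53.6% and 55.7% in KO at P1, against 49.4% and 41.6% in WT. At P10 it stood at 59.7%, 52.6% and 60.6% in KO, against 50.6% and 43.4% in WT. KO stood above WT by 10.002 points at P1 and 10.6 points at P10, just inside the limit (limma adjusted p = 0.864). Neighbouring Csmd2 exons of 125 and 88 bases also did not overlap between KO and WT, but at 8.71 and 7.02 points at P1 they fell outside it, as did an intron of Ahdc1 at 9.78 points (9.24 points at P10).

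The remaining separated members were 8 introns, 3 retained more and 5 retained less in KO, the Ubxn11 intron being 1 of these 5. The 509-base intron of Gpatch3, which encodes a G-patch protein (chr4:133139025-133139533, mm9, 3.72 Mb away), was retained at 36%, 26.8% and 17.1% in KO at P1, against 0% in both WT libraries. At P10 it was retained at 19.1%, 23.3% and 18.9% in KO, against 3.45% and 0% in WT. The WT libraries kept almost none of this intron, on 11 to 21 reads each, against 22 to 37 reads in KO. Its limma adjusted p in the average was 0.0542, and it was 0.0382 without a trend in the prior variance.

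Mtf1, the metal-responsive transcription factor, had 2 introns retained more in KO. The 1555-base intron (chr4:124519836-124521390, mm9) stood at 59.8%, 60.8% and 48.4% in KO at P1, against 33.1% and 20.9% in WT, and at 44.8%, 42.7% and 54.3% in KO at P10, against 16.2% and 38.8% in WT. The 518-base intron averaged 19.99% ± 2.46 in KO and 9.67% ± 5.97 in WT at P1, and 22.8% ± 2.86 in KO and 11.1% ± 6.19 in WT at P10 (SD, n = 3 KO and 2 WT). The groups did not overlap in either intron, with limma adjusted p of 0.367 and 0.515 in the average.

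Introns retained less in KO lay in Adgrb2 (named Bai2 in the tables), an adhesion receptor of the brain, and in Dhdds and Yrdc, enzymes of dolichol synthesis and tRNA modification. The 365-base Bai2 intron averaged 30.02% ± 17.3 in KO and 58.9% ± 4.67 in WT at P1, and 48.7% ± 14.4 in KO and 71.9% ± 1.51 in WT at P10 (SD, n = 3 KO and 2 WT). The 385-base Dhdds intron averaged 49.0% ± 7.34 in KO and 68.0% ± 8.59 in WT at P1, and 41.5% ± 2.39 in KO and 63.4% ± 9.44 in WT at P10. Retention of both was lower in KO by more than the larger of the group SDs at each age. The 1854-base Yrdc intron differed by -13.0 points at P1 and -15.3 points at P10. Limma adjusted p in the average was 0.631 for Bai2, 0.267 for Dhdds and 0.234 for Yrdc, so none of the 8 introns passed the test. The median over the 15 separated members of their mean reads per library was 49.0, against 79.1 over the 717 members with a mean PSI of 5 to 95.

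Hdac1, a class I histone deacetylase encoded 0.199 Mb from Khdrbs1, did not meet this description. Its 93-base exon (chr4:129198662-129198754, mm9) stood at 100% in all 6 KO libraries, at 75% and 57.6% in WT at P1, at 82.6% and 100% in WT at P10, and at 74.2%, 75% and 55.6% in WT at P30. WT libraries thus skipped the exon in part of their transcripts, except library 6 at P10, which equalled KO. The averaged difference was 21.2 points (3.38 on the log2 odds scale, SE 0.64; limma adjusted p = 0.0807). Without WT library 6 the adjusted p was 0.00519 and the difference 25.6 points, on only 14 to 36 reads per library.

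Rpl11, a protein of the large ribosomal subunit, was called at P10 through an exon of 111 bases (chr4:135606195-135606305, mm9, 6.19 Mb away). It stood at 100% in all 6 KO libraries and in both WT libraries at P1, at 87.5% and 78.6% in WT at P10, and at 53.9%, 60% and 87.5% in WT at P30. The KO libraries carried 48 to 167 reads at this exon and the WT libraries of all ages 10 to 25 reads. The P10 difference of 17.0 points had a limma adjusted p of 0.0294, and the call was lost when any 1 of the 10 KO and WT libraries of P1 and P10 was left out. The averaged difference of 8.48 points (limma adjusted p = 0.007) missed the minimum of 10 points. At P1, where PSI did not differ, the log2 odds still differed by 2.67 (SE 0.69). When all reads include the exon, the 0.5 added to each side makes the odds rise with read number. Both p-values at this exon thus reflect read number in part, and not inclusion alone. Ribosomal protein genes have processed copies elsewhere in the mouse genome, and how reads that fit several places were counted is not given, so this value is uncertain.

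Fuca1, a lysosomal fucosidase, had no event that met either description. Its intron of 2042 bases (chr4:135490796-135492837, mm9) was retained at 3.06%, 1.31% and 1.77% in KO at P1, against 3.70% and 6.71% in WT, and at 0.99%, 2.87% and 4.46% in KO at P10, against 7.37% and 10.6% in WT. The groups did not overlap at either age, but the differences were -3.16 and -6.23 points and the limma adjusted p in the average was 0.306.

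Members that differed at P1 mostly differed in the same direction at P10. Of 79 members, in 54 genes, with a mean PSI of 5 to 95 and at least 10 points at P1, 64 (81.0%) had the same sign at P10. The same held for 45 of 55 (81.8%) within 5 Mb and 19 of 24 (79.2%) from 5 to 10 Mb. It held for 80 of 152 events (52.6%) on the rest of chromosome 4 and for 1804 of 2933 events (61.5%) in the rest of the genome. At P10 the median difference, signed in the direction seen at P1, was 7.69 points in the window and 2.33 points in the rest of the genome. With at least 20 points at P1 the same sign was seen for 12 of 14 members and for 260 of 391 events elsewhere (66.5%). These shares were not tested.

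**Figure D4:**
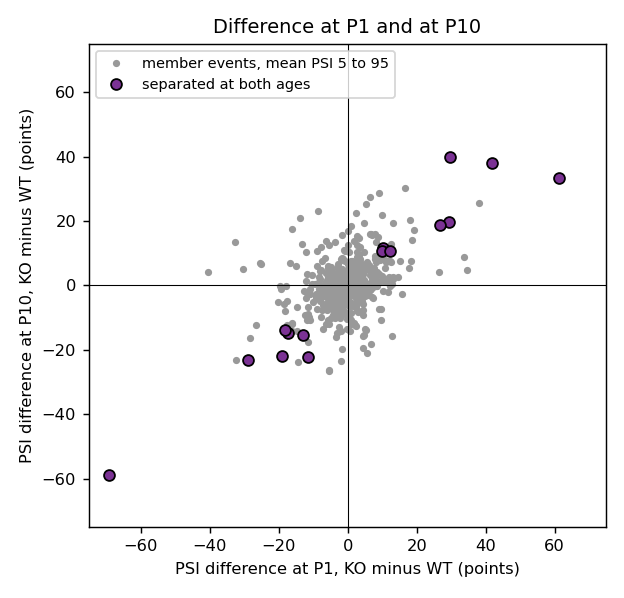
PSI difference, KO minus WT, at P10 (vertical axis, points) against that at P1 (horizontal axis, points) for members with a mean PSI of 5 to 95 (grey) and the 15 separated members (purple). The 2 differences come from different libraries, and of the 79 members with at least 10 points at P1, 64 have the same sign at P10.

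The WT libraries at P30 were not used to define the separated events, but the midpoint used below comes from P10 means that were. Among the 13 separated members with at least 10 reads in all 3 P30 libraries, those libraries all lay on the WT side of the midpoint between the KO and WT means at P10 for 9 members (69.2%), and all on the KO side for 1. In the rest of the genome the counts were 103 of 209 (49.3%) on the WT side and 51 on the KO side. The difference between these shares was not tested, and several of the 13 members share a gene (Ubxn11 or Mtf1). P30 also differs in age, and a change with age in WT can move libraries to either side.

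The members were also counted by gene list, beside 0.095% of all events called in the average and 0.148% separated, and beside an unadjusted p below 0.05 for 11.7% of the members and 6.01% of events in the rest of the genome. Of 22 listed symbols of RNA-binding and splicing genes, 18 had members. The others (Ago1, Ago3, Ago4 and Rsrp1) are current names of genes that the data call Eif2c1, Eif2c3, Eif2c4 and D4Wsu53e. The Eif2c symbols are among the 18, while D4Wsu53e was not counted. Rbbp4, Nudc and Rpa2, also listed, are not chiefly RNA-binding or splicing genes. By limma 0 of the 62 tested events of the 18 were called in the average (3, or 4.84%, at an unadjusted p below 0.05), and 0 were separated. Their median absolute difference was 1.94 points in the average, against 2.57 over all tested members. Of 20 listed synaptic and neuronal genes, 13 had members, with 0 calls by limma among 53 tested events (2, or 3.77%, at an unadjusted p below 0.05), 1 separated event (the Csmd2 exon) and a median of 1.42 points. Of 48 genes within 1 Mb of Khdrbs1, 41 had members, and of 90 tested events 1 was called in the average (the Tmem234 donor) and 16 (17.8%) had an unadjusted p below 0.05, while 2 were separated and higher and 1 separated and lower in KO (the Tmem234 donor, the Ptp4a2 exon and the Bai2 intron), with a median of 2.62 points.

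Some members also changed with age in WT, at shares below or near those of all events. From P1 to P10, 2 of 615 members (0.325%) were called, both lower at P10, beside 0.676% of all events. From P10 to P30, 20 of 623 (3.21%) were called, 14 higher and 6 lower at P30, beside 2.97% of all events. A 12-base exon of Macf1, a giant protein that links microtubules and actin, averaged 10.29% ± 2.69 at P1 (SD, n = 2), 23.9% ± 1.35 at P10 (n = 2) and 60.8% ± 2.08 at P30 (n = 3) in WT, and the gain of 36.95 points at P30 over P10 had a limma adjusted p of 0.000563. This exon averaged 10.4% ± 1.02 in KO at P1 and 21.6% ± 3.78 in KO at P10, within 3 points of WT.

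Other members that gained with age in WT were a 193-base exon of Zmym1, a zinc finger gene, by 49.2 points at P30 over P10 (limma adjusted p = 0.0298), and a 165-base exon of Bai2, by 25.5 points (limma adjusted p = 0.0115). The Zmym1 call was lost without WT library 5 or 6 (0.0621 and 0.333), and the Bai2 call without WT library 6 (0.204). Both were also lost with no limit on mean PSI (0.0619 and 0.0628). Falls were seen for a 141-base exon of Iffo2, of the intermediate filament family, by 16.7 points at P10 over P1 and by 23.1 points at P30 over P10 (limma adjusted p = 0.00329 and 0.00769). The 17-base acceptor of Epb4.1, which encodes the membrane skeleton protein 4.1, fell by 33.8 points at P30 over P10 (limma adjusted p = 0.00196), and a 1173-base intron of Adc (Azin2, an antizyme inhibitor) fell by 23.2 points at P10 over P1 (limma adjusted p = 0.0119). The Adc call was lost without WT library 8 or 5 (0.128 and 0.17). The Iffo2 call at P10 over P1 was lost without WT library 5 (0.0505), with 20 points required and with no limit on mean PSI (0.0645), and that at P30 over P10 without WT library 5 or 6 (0.0531 and 0.0959) and with no limit on mean PSI (0.0836). Averaged over P1 and P10, KO and WT differed by at most 6.55 points in any of these 6 events. At P1 alone the Adc intron was retained at 10.9%, 15.8% and 12.2% in KO, against 29.0% and 21.2% in WT, a difference that did not pass the test.

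Few genes of the window passed the test in expression. Of 238 genes tested, which reached an average of 1 cRPKM in some group and exclude Khdrbs1, 0 were called by limma at an adjusted p below 0.05 at P1 and 0 at P10, beside 0.0356% and 0.00711% of all 14063 genes. An unadjusted p below 0.05 was reached by 21 window genes at P1 (8.82%, against 6.73% in the rest of the genome), by 24 at P10 (10.1%, against 5.23%) and by 30 in the average (12.6%, against 6.72%). In the average, 1 gene was called, lower in KO, beside 0.0356% of all genes. That gene was Rcan3. Its level was 8.46, 10.03 and 8.25 cRPKM in KO at P1, against 32.7 and 24.7 cRPKM in WT. At P10 it was 9.63, 15.4 and 7.85 cRPKM in KO, against 20.6 and 19.5 cRPKM in WT.

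Rcan3 mRNA was below WT in all 6 KO libraries, and KO library 11 at P10, the one with the highest use of the longer acceptor, was also the highest in level. The averaged log2 fold change on the log2(cRPKM + 1) scale was -1.22 (SE 0.18; limma adjusted p = 0.0464). The call was lost in 8 of 10 fits that left out a library, where the adjusted p reached 0.251, with a pseudocount of 0.1 (0.0605) and without the P30 libraries (0.394), while the log2 fold change stayed between -1.35 and -1.12 when a library was left out.

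Levels of 6 window genes (2.52%) did not overlap between KO and WT at both ages in 1 direction, beside 1.88% of all genes. Of these, 3 were higher in KO, beside 0.732% of all genes, and 3 were lower, beside 1.15%. Mecr, a mitochondrial fatty acid synthesis enzyme encoded 1.98 Mb away, stood at 26.6, 22.1 and 40.6 cRPKM in KO at P1, against 12.6 and 7.37 cRPKM in WT, and at 17.2, 16.5 and 17.99 cRPKM in KO at P10, against 8.76 and 5.09 cRPKM in WT. Its averaged log2 fold change of 1.36 (SE 0.23) had a limma adjusted p of 0.101. The others were Id3, an inhibitor of DNA binding by bHLH factors (log2 fold change 0.52), and Pink1, a mitochondrial kinase (0.23), which stood higher in KO, and Rcan3, Oscp1 (-0.73) and Hmgn2, a nucleosome-binding protein (-0.50), which stood lower. The median averaged log2 fold change was -0.09 in the window and -0.05 in the rest of the genome. By limma, 0 genes of the RNA-binding, neuronal and 1 Mb lists were called in expression among 18, 14 and 39 tested, with 3, 2 and 5 at an unadjusted p below 0.05 in the average.

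**Figure D5:**
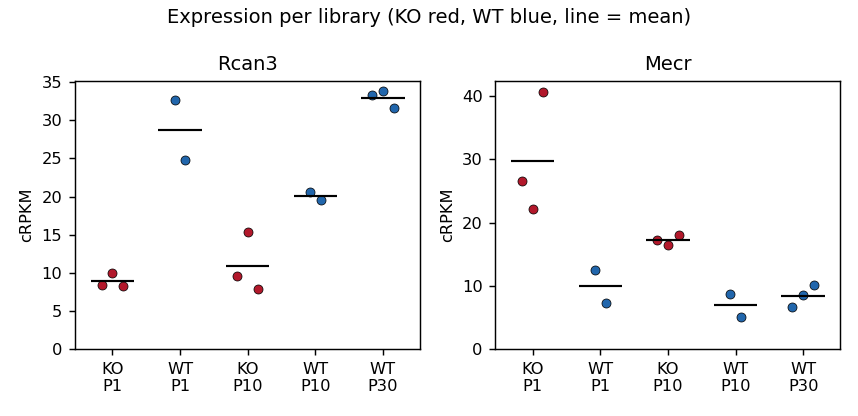
Expression in cRPKM (vertical axis) of Rcan3 and Mecr in each library, with KO left of WT at each age and WT at P30 last; points are libraries (KO red, WT blue) and lines are group means. Rcan3 lies lower and Mecr higher in every KO library than in the WT libraries of the same age.

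Host genes of the other called events did not pass the test in expression. Zdhhc18 averaged 3.46 cRPKM in KO and 6.51 cRPKM in WT at P1, and 5.92 cRPKM in KO and 7.26 cRPKM in WT at P10 (limma adjusted p = 0.76 in the average). Tmem234 averaged 43.0 cRPKM in KO and 33.6 cRPKM in WT at P1, and 49.5 cRPKM in KO and 38.2 cRPKM in WT at P10 (limma adjusted p = 0.721). Rpl11 was listed at 0, 10.8 and 41.8 cRPKM in KO at P1, against 22.4 and 17.3 cRPKM in WT, and at 12.7, 9.43 and 0 cRPKM in KO at P10, against 22.6 and 16.4 cRPKM in WT (limma adjusted p = 0.749). The KO levels of Rpl11 lay below WT at P10, whereas its 111-base exon carried more reads in each KO library than in any WT library.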

How the data were processed

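Splicing and expression tables of 13 cerebellar libraries were read as deposited. The submitters' processing notes name FastQC, Trimmomatic and build mm9; which aligner and splicing program were run is not stated there. The authors deposited percent inclusion (PSI) with the reads for and against inclusion of each event, and expression as cRPKM, an RPKM corrected for mappable length. Members without both ends (30) took the given end as start. PSI was tested in limma 3.58.1 (R 4.3.3) on the log2 odds of reads plus 0.5, with all 13 libraries in 1 fit of 5 groups, and cRPKM on log2(cRPKM + 1). Libraries with under 10 reads at an event were left out of it, and each group compared needed 2. The plan named both a limma trend and a trend with read depth; the prior variance follows mean log2 reads, chosen with earlier calls known, and a trend with mean log2 odds is an alternative added after seeing the data. No counts of reads per gene were used, so depth is given as reads at events. Named events were those called, those of Rcan3, Zdhhc18, Hdac1, Rpl11 and Fuca1, those separated at both ages (1 of which is not reported here), and, of members called in WT between P1 and P10 or between P10 and P30, the 3 largest rises and falls at P30 over P1. Members, these 5 genes and the lists were chosen with earlier results of these data known. Sequences are from GENCODE transcripts of GRCm38; their coordinates are not comparable with mm9. P-values were Benjamini-Hochberg adjusted over all events or genes tested. Alternatives covered the read minimum, the minimum difference, the window, the PSI limits, the scale, the variance trend, the pseudocount, the expression filter and each left-out library. Scripts were tested on simulated data.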

Additional observations from a re-analysis of the deposited data

Results flagged for a closer look

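A 134-base intron of Lck, a kinase gene 0.165 Mb from Khdrbs1, moved in opposite directions at the 2 ages. It was retained at 12.96%, 6.45% and 19.1% in KO at P1, against 29.3% and 20.4% in WT, and at 11.1%, 27.8% and 12.3% in KO at P10, against 4% and 9.09% in WT. Every KO library lay below WT at P1 and above WT at P10, so the difference at P10 minus that at P1 was 22.6 points. In limma that change had an unadjusted p of 0.0407 and an adjusted p close to 1, so it did not pass the test. The event rests on 13 to 75 reads per library at these ages. It was the only 1 of 2978 window events compared (0.0336%) that was separated in opposite directions with at least 10 points at each age. In the rest of the genome 57 of 170864 events (0.0334%) were, almost the same share. Groups held 2 or 3 libraries, too few to look for a single library apart from its group.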

How the results depend on the processing

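Of 200 counts recomputed under another setting, 153 stayed within 1.5 times the reported one. Splicing calls in the window, 2 at P1, 3 at P10 and 3 in the average, became 1, 1 and 2 with 20 points required, 1, 1 and 2 within 5 Mb, and 0, 0 and 2 with no limit on mean PSI. P10 gave 1 call with PSI in percent, 1 without the P30 libraries, 0 with no trend and 0 with a trend on mean log2 odds; that trend gave 1 at P1. The average gave 5 with no minimum difference, 5 with PSI in percent and 5 with a trend on mean log2 odds. Between WT ages, P10 minus P1 gave 1 with 20 points, 1 within 5 Mb, 1 with no limit on mean PSI and 5 with PSI in percent, and P30 minus P10 gave 12 within 5 Mb and 6 with no limit. Over all events, no limit on mean PSI left 0 calls at P1, 2 at P10 and 14 in the average, PSI in percent gave 65 in the average, no trend gave 3, 3 and 21, and a trend on mean log2 odds gave 1, 0 and 35, against 9, 12 and 34 as reported. Leaving out a library gave 1 to 3 calls at P1, 0 to 2 at P10 and 2 to 5 in the average. The change with age gave 0 to 0 calls, and the WT ages gave 1 to 4 and 6 to 26. Separated events then numbered 14 to 22 (0.475% to 0.737% of window events), and 12 to 16 lay within 5 Mb. Expression gave 0 to 2, 0 to 0 and 0 to 1 genes at P1, at P10 and in the average. Separated events in the rest of the genome numbered 242 (0.142%), but 397 (0.227%) without WT library 8, 410 (0.239%) without WT library 9 and 451 (0.263%) without WT library 6, where the window gave 0.56%, 0.57% and 0.57%. Where a lone WT library remained, it was assumed to vary like the other groups. Separated events fell to 5 (4 within 5 Mb) at 20 points, against 44 of 170864 elsewhere. Expression calls were 1 at P1 and 2 in the average with no filter, 0 in the average with a pseudocount of 0.1 and 0 without the P30 libraries. The Zmym1 exon reversed at P10 over P1 in WT, ranging from -16.8 to 1.62 points over the left-out libraries (1.62 without WT library 6). The cause of these changes was not tested. No paired analysis was possible because the library numbers are unique to each library and none is shared between groups. Depth limits events such as Rpl11, Hdac1, Gpatch3 and Ubxn11.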
